A study of Mus musculus with 15 samples.

Results

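The gene cluster on mouse chromosome 5 that holds Dspp, Dmp1, Ibsp, Mepe and Spp1 was examined for binding of FLAG-tagged transcription factors in osteoblasts. The window was chr5:104550000-104950000 (mm9), 400 kb long, and a peak belonged to it when its midpoint lay inside. Over all 12 deposited peak lists 108 of 165108 peaks met this rule. Peaks of any list that shared at least 1 bp were merged into 49 sites, of 61108 such sites in the genome. The rule uses position alone, but the window was picked with earlier results of these lists known.

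The study mapped tagged factors by chromatin immunoprecipitation with the M2 antibody against FLAG, followed by sequencing, with 2 libraries for each tagged factor and 1 for each control. In primary osteoblasts from the calvaria of postnatal day 1 C57BL/6 mice, Sp7 carried the tag on both alleles (genotype Sp7-BioFL/BioFL), and osteoblasts of wild-type mice taken through the same pulldown were the control. In the calvarial mouse line MC3T3-E1, pre-osteoblasts used at passages 5 to 10, the tagged proteins were Sp7, a mutant labelled Sp7mut, Dlx5 and Sp1, with GFP as the control. All cell line groups were grown for 1 week in osteogenic medium with BMP-2 (10 ng/ml), beta-glycerophosphate (10 mM) and ascorbic acid phosphate (50 ug/ml). The labels give neither the mutation in Sp7mut nor the way in which the factors were expressed in the line, and they do not say whether the 2 libraries of a group came from separate cultures or litters. In what follows a region of a group is a merged peak found in both of its libraries and outside the FLAG control peaks of the same cell system. The lists hold positions only, so the depth behind a peak is unknown, and the place of a peak in its list is given as a row percentile, from 0 for the first to 100 for the last row. What the order of rows stands for is not stated. Positions of peaks hold no expression, so the labelled cell types could not be checked against marker genes.

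The 5 genes encode the small integrin-binding ligand, N-linked glycoproteins, secreted acidic phosphoproteins of bone and dentin that arose by gene duplication and still lie side by side. Dspp encodes dentin sialophosphoprotein, the main non-collagenous protein of dentin, and Dmp1 encodes a matrix protein of osteocytes and odontoblasts that takes part in phosphate regulation. Ibsp encodes bone sialoprotein, which promotes the nucleation of hydroxyapatite, Mepe a phosphoglycoprotein made mainly by osteocytes that restrains mineralization, and Spp1 osteopontin, which binds integrins and slows crystal growth. Without Sp7 (Osterix), a zinc finger protein, mice form no osteoblasts; its relative Sp1 is made in most cells and reads GC boxes, and Dlx5 is a homeodomain factor of the skeleton that reads AT-rich cores. In the RefSeq annotation of GRCm38.p6 the protein-coding order is Sparcl1, Dspp, Dmp1, Ibsp, Mepe, Spp1 and Pkd2, with no other protein-coding gene between Dspp and Spp1. Positions of these genes in mm9 were not used here, so no site is assigned to a gene.

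The start regions of these genes are shown because AT-rich cores and GC boxes are the letters that Dlx5 and Sp1 are known to read. The RefSeq promoter table of GRCm38.p6 held 4 of the 5 genes, all but Dspp. Each line gives the 250 bases before the first annotated start, on the plus strand, with capitals for the homeodomain core AATTA, also where it is part of the longer TAATTA, and for the Runx2 core TGTGGT; Runx2 is another factor osteoblasts require. Matches on either strand are capitalized, and TAATTA holds AATTA on both. The coordinates in these lines are of GRCm38.p6 and cannot be set beside the mm9 coordinates of the sites.
Ibsp, chr5:104299037-104299286: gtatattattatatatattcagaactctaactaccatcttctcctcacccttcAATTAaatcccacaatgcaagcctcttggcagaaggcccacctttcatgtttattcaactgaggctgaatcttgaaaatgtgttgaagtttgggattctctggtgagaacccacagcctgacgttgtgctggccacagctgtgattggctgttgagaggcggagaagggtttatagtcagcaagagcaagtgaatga
Mepe, chr5:104325079-104325328: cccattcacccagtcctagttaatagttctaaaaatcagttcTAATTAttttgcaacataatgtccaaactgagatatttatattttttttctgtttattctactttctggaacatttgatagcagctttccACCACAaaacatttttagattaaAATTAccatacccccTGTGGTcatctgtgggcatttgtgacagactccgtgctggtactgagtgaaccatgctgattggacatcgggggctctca
Spp1, chr5:104434861-104435110: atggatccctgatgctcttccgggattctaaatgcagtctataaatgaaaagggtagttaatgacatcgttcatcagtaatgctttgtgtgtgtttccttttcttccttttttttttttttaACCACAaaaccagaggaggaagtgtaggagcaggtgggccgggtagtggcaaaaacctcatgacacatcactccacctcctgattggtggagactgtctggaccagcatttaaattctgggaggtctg

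The Mepe stretch held the most of these letters. It had TAATTA, which 4.84% of the 32851 promoters of the same length in the table held, another AATTA whose first base lay at position -95 from the start, and TGTGGT on each strand. In the Ibsp stretch AATTA occurred once, at position -197, and 25% of all promoters held it on one strand or the other. Spp1 had TGTGGT once before its first start, on the minus strand, a core found in 14% of promoters, and TAATTA once before its second start. The first start of Dmp1 had none of the letters searched, and its second had TGTGGT once. The GC box GGGCGG, found in 32.7% of all promoters, was in none of the 6 promoters listed for the 4 genes. The 6 promoters held 35.6% to 46% G and C, against a median of 52.4% over all promoters. The shares given were not matched for base content. These are matches of letters in a window, and whether a peak of the lists lies in any of them was not determined.

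In primary osteoblasts no other 400 kb stretch of the grid described next held more Sp7 regions than this window. Replicate 1 had 8 peaks here and replicate 2 had 7, which is 0.3% (95% Clopper-Pearson interval 0.13 to 0.59) of 2666 peaks and 0.218% (0.0877 to 0.449) of 3212 peaks; such intervals cover counting error only. The wild-type control had 0 of 183 peaks in the window and the GFP control 0 of 269. For these the upper limit was taken as 3 over the number of peaks, 1.64% and 1.12%. The Clopper-Pearson upper ends were 2% and 1.36%. Both primary lists thus had peaks where neither control list had one, although short control lists limit what a count of 0 says.

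Set beside 6433 windows of the same length on one grid over all chromosomes, the cluster was at the upper end for primary Sp7. It held 6 primary Sp7 regions, the highest number in any window, and 8 windows (0.124%), the cluster among them, reached it. At least 1 such region lay in 22.2% of windows. By single lists, no other window had 8 or more peaks of replicate 1, and 11 windows, the cluster among them, had 7 or more of replicate 2. No test was made of these counts: the window had been picked out with results of these lists known.

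**Figure D1:**
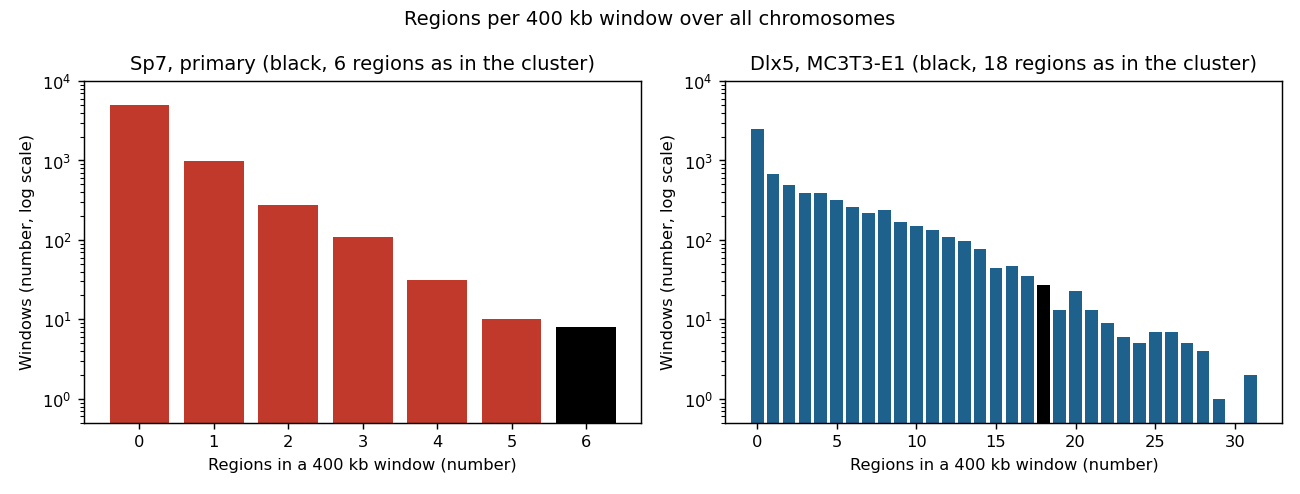
Regions found in both libraries per 400 kb window, for Sp7 in primary osteoblasts (left) and Dlx5 in MC3T3-E1 cells (right); the horizontal axis is the number of regions and the vertical axis the number of windows on a log scale. The black bars mark the counts of the bone matrix cluster, 6 for primary Sp7, the highest of all windows, and 18 for Dlx5, which 1.9% of windows reached.

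Dlx5 in the cell line had most of the peaks in the window. Its replicate 1 had 19 peaks and replicate 2 had 43, or 0.0628% (0.0378 to 0.0981) and 0.108% (0.0783 to 0.146) of their lists. Both lists met at 18 regions, a count that 1.9% of all windows reached; at least 1 Dlx5 region lay in 61.6% of windows. Of the 49 sites, 44 held a Dlx5 peak of either library, against 72.5% of sites in the genome. The libraries differed: 18 sites (36.7%) rested on Dlx5 replicate 2 alone, against 18.7% of sites genome-wide.

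The other cell line factors had fewer peaks here than Dlx5. Sp7 had 9 peaks in replicate 1 and 2 in replicate 2, Sp7mut had 3 and 7, and Sp1 had 1 and 9, so within each of these groups the lists differed more than the groups did. Regions found in both libraries numbered 2 for Sp7, 3 for Sp7mut and 1 for Sp1. At least as many regions lay in 19% of windows for Sp7, 19% for Sp7mut and 45.2% for Sp1. The median window held 0 regions of each. At least 1 region lay in 35.8% of windows for Sp7 and 43.5% for Sp7mut. As a share of its list, the cluster took between 0.00948% (Sp1 replicate 1, 0.00024 to 0.0528) and 0.0483% (Sp7 replicate 1, 0.0221 to 0.0917) in these 6 lists. These values were below those of both primary Sp7 lists and both Dlx5 lists. The interval of Sp7 replicate 1 nevertheless overlapped those of both Dlx5 lists and of primary Sp7 replicate 2. With 2 libraries a group, the smallest p that an exact permutation test (two-sided) can give is 0.333, and no test of these shares was made.

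**Figure D2:**
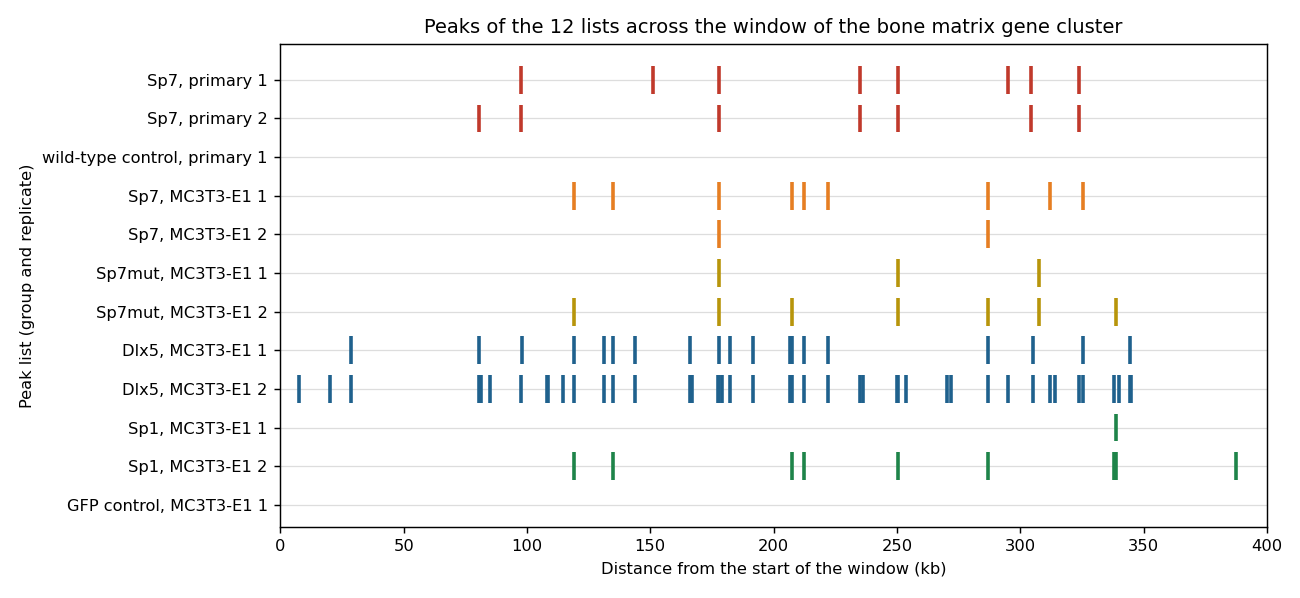
Position of every peak, in kb from the start of the 400 kb window, for each of the 12 lists; each tick is the midpoint of the site that holds the peak, coloured by group. Ticks of both primary Sp7 lists fall together at 6 positions, Dlx5 replicate 2 is spread over most of the window with 43 peaks, and both control rows are empty.

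List length differs widely between the groups, from 2666 rows in primary Sp7 replicate 1 to 39749 in Dlx5 replicate 2. At 2666 rows per list, the length of the shortest tagged list and a limit chosen after the data were seen, primary Sp7 had 8 and 5 peaks in the window. Dlx5 then had 2 and 3, Sp7mut 1 and 1, cell line Sp7 0 and 1, and Sp1 0 and 0. At up to 5000 rows the counts were 8 and 7 for primary Sp7, 5 and 9 for Dlx5, 1 and 2 for cell line Sp7, 1 and 1 for Sp7mut and 0 and 0 for Sp1. At the shorter length both primary lists exceeded every cell line list, and at the longer one the ranges of primary Sp7 and Dlx5 overlapped. At that length both Dlx5 lists had more peaks here than any list of cell line Sp7, Sp7mut or Sp1.

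**Figure D3:**
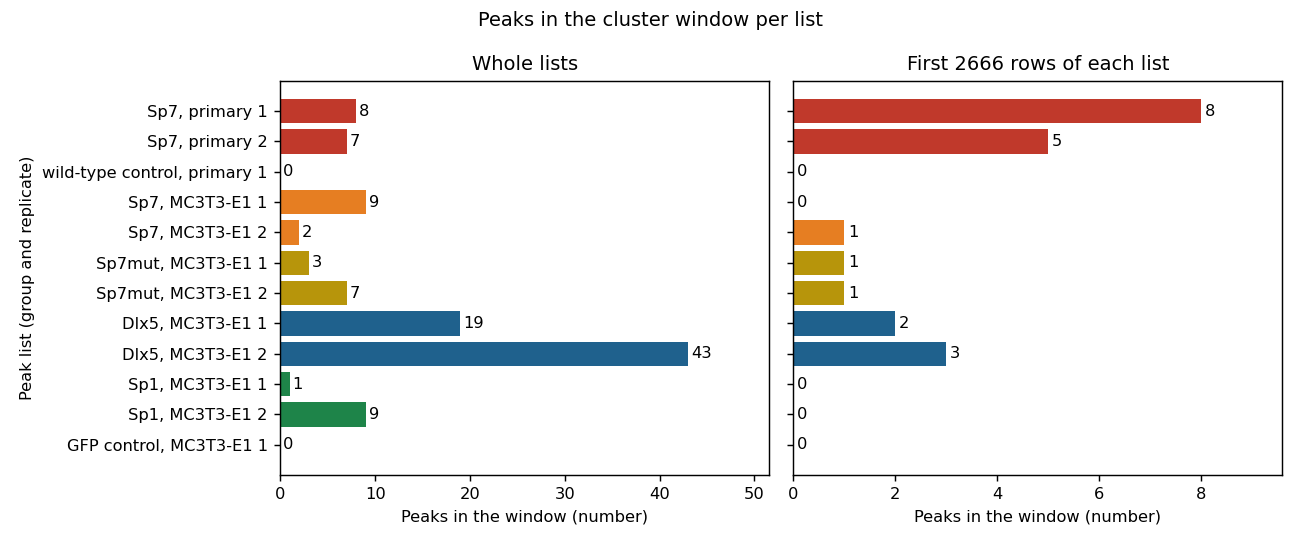
Number of peaks in the cluster window per list (bars), in whole lists on the left and in the first 2666 rows of each list on the right. In whole lists Dlx5 replicate 2 has the most, 43, and at equal length the primary Sp7 lists have the most, 8 and 5.

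A single site was shared by Sp7 in both cell systems, Sp7mut and Dlx5, in all 8 of their libraries. The share of sites in the genome held by all 8 was not computed. Over all 2097 primary Sp7 regions, 39.6% overlapped a cell line Sp7 region, 48.9% a Sp7mut region and 69.1% a Dlx5 region. The shared site was chr5:104727873-104728206, 334 bp wide and 178 kb from the start of the window. The row percentiles were 37.4 and 86.7 in primary Sp7, 34.6 and 15.4 in cell line Sp7, 10.6 and 9.98 in Sp7mut, and 7.26 and 2.17 in Dlx5. No peak of Sp1 lay on it. In Dlx5 replicate 2 and in both Sp7mut lists it was the earliest peak of the window, and in cell line Sp7 replicate 2 the earlier of 2. Primary Sp7 had it late in replicate 2 and nearer the middle in replicate 1. Percentiles of lists of unequal length do not measure binding and were not compared between groups.

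Around this site lay further Dlx5 peaks. Replicate 2 alone had chr5:104727509-104727736 on one side and chr5:104728801-104729058 on the other, at the 37.5 and 33.6 row percentiles. Both Dlx5 libraries then had chr5:104732389-104732574, at 14 and 6.24, and chr5:104741471-104741684, at 64 and 11.5. No other factor had a peak on these 4 sites. Sites with Dlx5 peaks and no other group were 28 of the 49 in the window (57.1%) and 37.6% of sites in the genome.

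The other 5 primary Sp7 regions lay where neither library of cell line Sp7 had a peak. With the shared site included, 1 of 6 met a cell line Sp7 peak of either library, against 50.4% of all 2097 primary regions, and 1 of 6 overlapped a Sp7 region of the line, against 39.6%. For Sp7mut regions the count was 2 of 6 (48.9% in the genome), for Sp1 regions 0 of 6 (4.53%), and for a region of any cell line group 2 of 6 (71.1%). These are counts of 6 regions of 1 window and were not tested against the genome. With replicate 1 of every group left out, 6 of the 7 primary peaks met a peak of a cell line list, each time one of Dlx5 replicate 2; over all primary peaks of replicate 2 the share was 78.9%. Coordinates given from here on are those of the merged site. The earliest of the 5 was chr5:104800411-104800691, at 20.2 and 29.6 in the primary lists. Sp7mut had it in both libraries, at 67.9 and 50.7, Dlx5 replicate 2 at 21.6 and Sp1 replicate 2 at 65.7. The cell line Sp7 lists had no peak on it. How many primary regions in the genome met Sp7mut without cell line Sp7 was not computed. Of all primary regions, 58.5% met a Sp7mut peak of either library and 50.4% a cell line Sp7 peak.

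The remaining 4 primary regions differed in what met them. At chr5:104784944-104785129 the primary lists gave 25.8 and 63.8 and Dlx5 replicate 2 gave 27.2. The site chr5:104647647-104647847 had primary peaks at 52.7 and 64.1 and a Dlx5 replicate 2 peak at 15.1. At chr5:104873741-104873956 the primary peaks were at 92 and 52.6 and that of Dlx5 replicate 2 at 83.2. The fourth, chr5:104854193-104854379, at 34.3 and 48.9, had no peak of any cell line list.

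Dlx5 met primary Sp7 here mostly through 1 library. Of the 6 primary Sp7 regions, 1 overlapped peaks of both Dlx5 libraries, against 69.1% in the genome, 4 overlapped Dlx5 replicate 2 and not replicate 1, against 13.8%, and 1 overlapped neither, against 15.7%. Taking a peak of either library as enough, 5 of 6 met Dlx5, beside 84.3% in the genome. Beside the region at 97.7 kb Dlx5 replicate 1 had a peak of its own, chr5:104647973-104648151, at 41.3, close to the replicate 2 peak without touching it. Dlx5 replicate 2 is the longer list, with 39749 rows against 30234, and the part of that length in this difference was not tested.

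**Figure D4:**
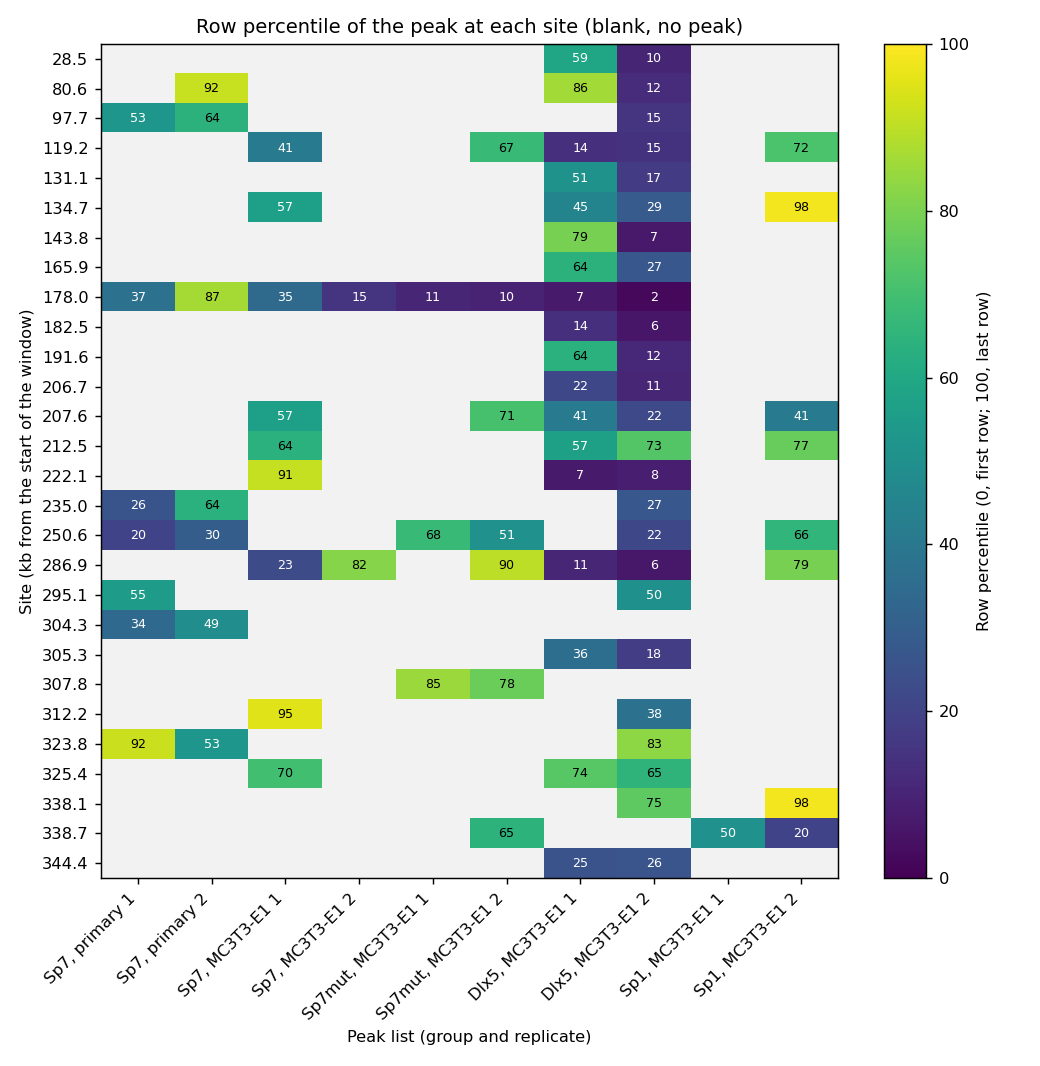
Row percentile of the peak at each of 28 sites (rows, by distance in kb from the start of the window) in the 10 lists of tagged factors (columns); 0 is the first row of a list, 100 the last, and blank cells have no peak. The site at 178 kb is filled in all 8 lists of Sp7, Sp7mut and Dlx5. Most sites with a primary Sp7 peak are empty for cell line Sp7, and other sites are empty for both. In the genome 46% of sites with a primary Sp7 peak also held a cell line Sp7 peak.

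Primary Sp7 also had 3 sites in 1 library only, which brought it to 9 of the 49 sites (5.99% of sites in the genome), 2 of these 9 with no cell line peak, as 19.5% of all sites with primary Sp7. Replicate 2 met 6 of the 8 peaks of replicate 1, against 82% of that whole list. Replicate 1 met 6 of the 7 peaks of replicate 2, against 68.1%. Of the 3 sites, replicate 2 had chr5:104630444-104630735, at 91.5, on a site of both Dlx5 libraries at 86.2 and 12.5. Replicate 1 had chr5:104845072-104845218, at 55.3, with Dlx5 replicate 2 at 50.3. The other site of replicate 1 was chr5:104700971-104700991, at 74.6 and met by no other list, with 21 bp the narrowest peak of the window; the median width was 195 bp in that list as a whole.

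In this window 44 of the 49 sites (89.8%) held a Dlx5 peak of either library, and so did every site of cell line Sp7. All 9 sites with cell line Sp7 held one, where in the genome 79.5% of such sites did. Of the 9, 5 held an Sp1 peak (65.8%). Both regions of cell line Sp7 overlapped a Dlx5 region, against 84.4%. Of the 2, 1 overlapped a Sp7mut region (69.6% in the genome) and 0 overlapped an Sp1 region (30.3%). The second region was chr5:104836685-104837156, at 23.1 and 81.7 for Sp7 and 10.7 and 6.27 for Dlx5, with Sp7mut replicate 2 at 89.9 and Sp1 replicate 2 at 79.4. The Sp7 libraries placed it differently, and primary Sp7 had no peak on it. With replicate 2 of each group left out, 8 of 9 Sp7 peaks met a Dlx5 peak of replicate 1, against 67.7% of all Sp7 peaks of replicate 1.

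Sp7 replicate 1 carried 7 further sites that its shorter replicate 2 did not have. Replicate 2 met 2 of its 9 peaks here, against 27.9% of its whole list. At 4 of the 7 sites Sp1 or Sp7mut peaks of replicate 2 lay as well, a share not computed for the genome. Of all sites in the genome with cell line Sp7, 65.8% held an Sp1 peak of either library and 58.1% a Sp7mut peak. Sites chr5:104668857-104669475 and chr5:104757519-104757775 held Sp7 at 41.3 and 56.6 and were shared with both Dlx5 libraries, Sp7mut replicate 2 and Sp1 replicate 2. Sites chr5:104684574-104684784 and chr5:104762280-104762668 held Sp7 at 56.6 and 63.9, with both Dlx5 libraries and Sp1 replicate 2. The other 3 were met by Dlx5 alone, at chr5:104771987-104772202, chr5:104862070-104862274 and chr5:104875327-104875524, where Sp7 stood at 91.3, 95.2 and 69.6. The first of these was the earliest peak of the window in Dlx5 replicate 1, at 7.08, and stood at 8.33 in replicate 2. The second had a peak of Dlx5 replicate 2 only, at 37.5.

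Of the 3 Sp7mut regions here, 1 was held by no other list, and the share of such regions in the genome was not computed. Over all 8201 Sp7mut regions, 83.2% met a Dlx5 peak of either library and 81.1% a cell line Sp7 peak. For Sp1 the share was 79% and for primary Sp7 18%. The region held by Sp7mut alone was chr5:104857564-104858069, at 85 and 77.6, late in both Sp7mut lists and 506 bp wide as merged. The other Sp7mut regions were the shared site and that at 250.6 kb. Of the 7 sites with a Sp7mut peak, 5 held Dlx5 (76.9% in the genome), 5 held Sp1 (73.6%), 4 held cell line Sp7 (68%) and 2 held primary Sp7 (12.2%).

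Sp1 was found in both libraries at 1 site only, near the right end of the peaks. It was chr5:104888482-104888839, at 50.5 and 20.1, shared with Sp7mut replicate 2 at 64.7 and with no Sp7 or Dlx5 peak. Its neighbour chr5:104887950-104888157 had Sp1 replicate 2 at 98.1 and Dlx5 replicate 2 at 75.2. Sp1 replicate 2 alone had chr5:104937347-104937584, at 53.8, the last site of the window at 387.5 kb. Over the window, 9 of 49 sites held an Sp1 peak of either library, against 46.1% of sites in the genome. Of these 9, 7 held Dlx5 (50.4% in the genome) and 5 cell line Sp7 (43.2%). Dlx5 peaks lay on 44 of all 49 sites of the window (89.8%).

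Dlx5 stood without any other factor at 9 of the sites that both of its libraries held. Of the 18 Dlx5 regions, 2 overlapped a region of another group (34.2% in the genome) and 9 a peak of any other group (63.9%). The other 9 sites, of 49, had Dlx5 in both libraries and no other factor, as did 14% of sites in the genome. Besides the pair near the shared site these were chr5:104578379-104578563, chr5:104680954-104681163, chr5:104693684-104693840, chr5:104715701-104716004, chr5:104756602-104756808, chr5:104855168-104855406 and chr5:104894308-104894492. Their row percentiles ran from 14 to 79.3 in replicate 1 and from 6.24 to 27.2 in replicate 2, so replicate 2 had them all in its earlier part. The site at 104693684 was the widest apart, at 79.3 and 7.02.

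The sites crowded between the ends of the window. In steps of 50 kb the window held 3, 5, 7, 8, 6, 7, 12 and 1 sites, with the 12 from 300 to 350 kb. Neighbouring sites lay 98 bp to 51880 bp apart, with a median of 4350 bp, and 11 of 48 gaps were under 1000 bp. Of all 6433 windows, 47 (0.731%) held 49 or more merged sites, and the median window held 5. By make-up, 21 (42.9%) were found in 1 list, against 39.5%, and 25 (51%) were in both libraries of at least 1 tagged group, against 52%. At 5 sites 4 groups met (11.5% of sites in the genome). None of the 49 held a control peak, which 0.563% of all sites did. The 21 sites found in 1 list and not shared between groups were 18 of Dlx5 replicate 2, and 1 each of Dlx5 replicate 1, primary Sp7 replicate 1 and Sp1 replicate 2.

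Midpoints of overlapping peaks are given as a description, since overlap itself bounds their distance by the width of the peaks. The median distance was 15 bp over 15 pairs of primary Sp7 and Dlx5 peaks, with a range of 0.5 to 107.5 bp, and 27.5 bp over 21 pairs of cell line Sp7 and Dlx5 peaks, with a range of 1.5 to 216 bp. Between libraries of the same factor it was 13.5 bp over 6 pairs of primary Sp7 peaks (13 to 22 bp) and 16.5 bp over 18 pairs of Dlx5 peaks (1.5 to 109 bp). For Sp1 the median was 77.3 bp from Dlx5 over 12 pairs (5 to 169 bp) and 81.3 bp from cell line Sp7 over 6 pairs (4.5 to 181.5 bp). These ranges overlap, pairs at 1 site share peaks, and the distances were not tested.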

How the data were processed

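Peak lists of 12 of the 15 samples were used; the 3 inputs were not analysed here. The authors deposited chromosome, start and end of each peak and no other values, neither score nor count, so the depth is unknown. The build was mm9 (from the submitters' processing notes). Which aligner, peak caller and threshold were used is not given in the sources used here. The labels name the inputs: the primary groups shared 1, Sp7 and Dlx5 of the line shared another, and Sp1 and Sp7mut a separate one, so that input and factor cannot be told apart between these pairs; none is named for GFP.

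Positions were read as BED intervals and are printed 1-based. Groups and replicate numbers came from the titles. Windows of 400 kb were laid end to end over each chromosome, on the grid of the cluster. The code that finds overlaps was tested on simulated data. Sites are named where a tagged group had both libraries or at least 2 groups met; single-list sites named beside them were chosen after their values were seen. The window, members and rules were chosen with earlier results of these lists known. Alternatives were an overlap of 50% of both peaks, merging across 200 bp, any overlap with the window, 100 kb more on each side, the earlier or the wider 50% of each list, 5000 rows, controls kept, and a replicate left out; 2666 rows and a peak of either library were added after the data were seen. Python 3.11.15 (numpy 2.4.6, pandas 2.3.3, scipy 1.17.1, matplotlib 3.10.9) was used.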

Additional observations from a re-analysis of the deposited data

How the results depend on the processing

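Counts of sites and regions moved with list length and with the need for both libraries. With an overlap of 50% of both peaks, cell line Sp7 had 1 region, and 1 of its regions met Dlx5. The window widened by 100 kb on each side held 2 Sp1 regions. The earlier 50% of rows gave 28 sites, with 2 regions of primary Sp7, 1 of cell line Sp7, 1 of Sp7mut, 10 of Dlx5 and 0 of Sp1; 1 Sp7 region met Dlx5 and 0 primary regions met a cell line region. The wider 50% of peaks gave 1 primary Sp7, 1 Sp7mut, 4 Dlx5 and 0 Sp1 regions, with 1 Sp7 region at Dlx5 and 0 primary regions at a cell line region. The first 5000 rows gave 1 cell line Sp7, 1 Sp7mut, 4 Dlx5 and 0 Sp1 regions, 1 Sp7 region at Dlx5 and 1 primary region at a cell line region. The first 2666 rows, added after seeing the data, gave 5 primary Sp7, 1 Sp7mut, 1 Dlx5, 0 cell line Sp7 and 0 Sp1 regions, and 0 of either overlap. With a peak of either library as enough, also added later, 5 primary regions met a cell line peak. The alternatives by rows or width keep fewer peaks, and those by overlap change what counts as shared; the wider window covers more sequence.

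Leaving out replicate 1 or 2 of every group, so that 1 peak was enough, gave 29 to 47 sites, 7 to 8 regions of primary Sp7, 2 to 9 of cell line Sp7, 3 to 7 of Sp7mut, 19 to 43 of Dlx5 and 1 to 9 of Sp1. Cell line Sp7 then met Dlx5 at 2 to 8 regions, and primary Sp7 met a cell line peak at 2 to 6. Of 80 values under alternatives, 43 stayed within 1.5 times the reported count and 37 moved by more. No paired analysis was possible because no result comes from a test. The lists give no depth, and 2 libraries a group limit every comparison.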
